A study of Mus musculus with 4 samples.

Results

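Short nascent DNA strands of mouse embryonic stem (ES) cells were hybridised against total DNA on tiled arrays, and the regions described here are the 6952 single-probe fragments, that is, the stretches of array design that carry exactly 1 probe. They were found from the probe names, which give the number of a fragment, its chromosome, its length and the place of the probe inside it. No measured value was used. They made up 65.7% of all 10582 tiled fragments, 35.1% of the 19805 probes and 32.2% of the summed fragment length. The design left repetitive sequence out, so a fragment is a piece of non-repetitive DNA, and a single-probe fragment is one such piece with a single 60-base probe, whatever its length. How much sequence lies between neighbouring fragments was not measured, because the positions of the fragments are not in the probe names.

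The cells were the female ES cell line PGK12.1, a single untreated line derived from mouse embryos. Both groups of arrays used nascent strands of this line from a sucrose gradient, digested with λ-exonuclease, against its total genomic DNA. Strands of 300–800 nt were labelled with Cy3 on 2 arrays, and strands of 100–600 nt were labelled with Cy5 on 2 other arrays. Dye, printed array design, extraction software and strand length changed together, so differences between the fractions cannot be told apart from them. The dyes were not swapped within a fraction. The methods describe biological replicates of the 300–800 nt strands, but their 2 arrays differed by less than the scatter of repeated spots within an array would give. Over the single-probe fragments the variance between them was 0.761 times that expected for probe means from the repeated spots of all probes. This ratio was 3.71 for the 2 arrays of 100–600 nt strands. The former pair is therefore also given counted as 1 sample, and p-values may measure technical spread only. Over the single-probe fragments the Pearson correlation was 0.984 between the 300–800 nt arrays, 0.580 between the 100–600 nt arrays (n = 5498) and 0.387 between the means of the fractions (n = 6891).

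DNA replication starts at origins (ORIs), where short strands are first made from an RNA primer. The primer protects new strands from λ-exonuclease, which removes broken DNA that has no primer. Strands of ORI size are therefore enriched for DNA around start sites, and in mammals many ORIs lie at promoters in CpG islands, stretches rich in the dinucleotide CpG. On such an array an ORI is called from several neighbouring probes, which an isolated probe cannot supply by itself.

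The following probes show the sequences behind some of the extreme values described below. They differ in 2 visible respects: whether they hold CpG, and how far purines (a and g) or pyrimidines (c and t) outnumber the other kind. Only the probe of fragment 45327 holds any CpG, and fragments 45824 and 66233 hold 30 bases of each kind. Capitals mark each CpG. The first set stood high on all 4 arrays.
Fragment 45327: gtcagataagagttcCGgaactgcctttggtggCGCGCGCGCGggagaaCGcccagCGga
Fragment 45824: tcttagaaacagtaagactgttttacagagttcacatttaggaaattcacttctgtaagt
The second set stood low on all 4 arrays.
Fragment 43367: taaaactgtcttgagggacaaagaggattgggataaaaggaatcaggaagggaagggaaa
Fragment 63298: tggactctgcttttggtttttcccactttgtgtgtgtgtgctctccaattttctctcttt
Fragment 109025: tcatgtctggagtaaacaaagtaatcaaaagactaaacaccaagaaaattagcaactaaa
Fragment 65239: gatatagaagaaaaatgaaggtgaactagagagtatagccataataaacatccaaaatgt
Fragment 64934: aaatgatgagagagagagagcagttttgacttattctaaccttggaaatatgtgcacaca
The last pair was high in one fraction and below the median in the other, fragment 43488 in 300–800 nt and fragment 66233 in 100–600 nt.
Fragment 43488: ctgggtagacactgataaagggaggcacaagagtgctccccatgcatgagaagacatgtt
Fragment 66233: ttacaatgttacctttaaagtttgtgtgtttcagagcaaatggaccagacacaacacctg

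On average, and without matching for length, single-probe fragments held less nascent DNA relative to genomic DNA than the rest of the tiled sequence. The measure throughout is the loess-normalised log2 ratio, nascent strands over genomic DNA, on which 0 is close to the typical probe of an array. Their mean was -0.130 and -0.131 on the 2 arrays of 300–800 nt strands, where the 12853 probes of longer fragments had means of 0.0530 and 0.0538. On the arrays of 100–600 nt strands their mean was -0.148 and -0.163, against 0.0243 and 0.0213. The single-probe fragments were thus lower on 4 of 4 arrays, with a difference of -0.181 ± 0.0061 (SD, n = 4), or a ratio of 0.882. An exact two-sided sign-flip test over the 4 arrays gave p = 0.125, the smallest value it can give, and with the 300–800 nt arrays counted as 1 sample the difference was -0.180 ± 0.0069 (SD, n = 3, exact p = 0.25). With median centring in place of loess it was -0.306 and -0.312 on the 300–800 nt arrays and -0.171 and -0.227 on the 100–600 nt arrays. The difference was small beside the spread among the members, whose SD was 0.759 and 0.768 in 300–800 nt and 0.474 and 0.599 in 100–600 nt.

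The shift was present in each of the 3 tiled regions. On chromosome 3, with 2431 members, the difference from longer fragments ran from -0.194 to -0.160 over the 4 arrays. In the X chromosome region of higher fragment numbers, with 2185 members, it ran from -0.219 to -0.192, and in that of lower fragment numbers, with 2336, from -0.172 to -0.157. No region carried the difference alone.

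**Figure D1:**
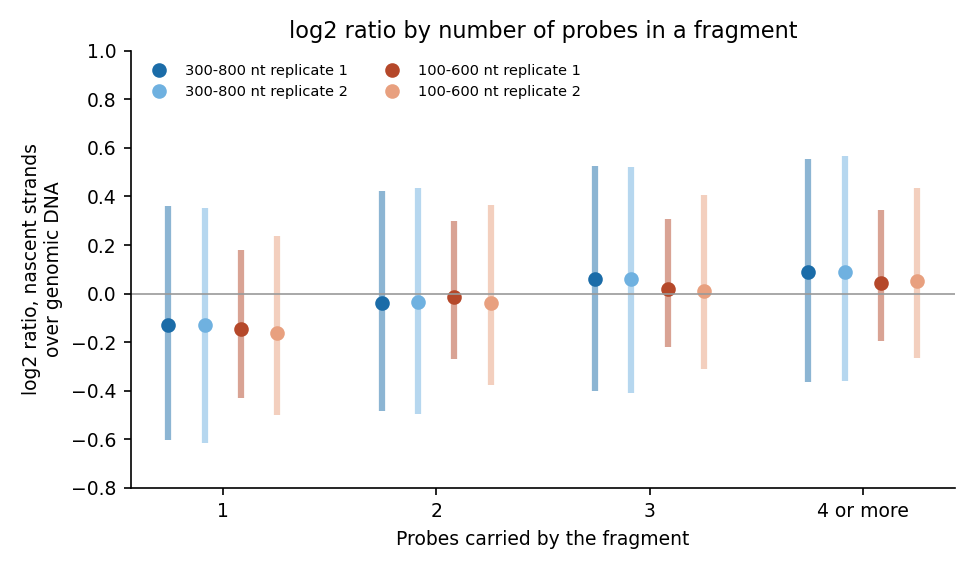
Log2 ratio, nascent strands over genomic DNA (vertical axis), by the number of probes in a fragment (horizontal axis), for each of the 4 arrays. Points are means over probes and bars run from the lower to the upper quartile. The single-probe fragments have the lowest mean on every array, from -0.163 to -0.130, and fragments with 4 or more probes the highest, from 0.0425 to 0.0902.

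Fragments just outside the definition, the 1542 with 2 probes, lay in between. Their mean log2 ratio was -0.0369 and -0.0353 in 300–800 nt and -0.0138 and -0.0408 in 100–600 nt. Fragments with 3 probes had means between 0.0116 and 0.0607 on the 4 arrays. The plot of log2 ratio by number of probes shows that the quartile ranges of all classes overlapped widely.

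Fewer single-probe fragments reached high values and more reached low ones. Above the 0.95 quantile of all probes, by construction 5.00% of probes, stood 303 members (4.36%) in 300–800 nt and 191 (2.77%) in 100–600 nt. Below the 0.05 quantile, again 5.00% of probes, stood 508 members (7.31%) in 300–800 nt and 493 (7.15%) in 100–600 nt. The deficit at the top was therefore small in 300–800 nt and larger in 100–600 nt, and the excess at the bottom was of like size in both. The difference between fractions in these shares was not tested.

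Limma tested each log2 ratio against 0, which the loess step places near the typical probe of an array. Higher or lower than genomic DNA, here and below, therefore means above or below that level, not an absolute excess or lack. The fit covered 15478 probes, those measured on all 4 arrays (5498 members). At an adjusted p under 0.05, 1316 single-probe fragments were higher in 300–800 nt strands than in genomic DNA, which is 23.9% against 29.3% of all probes. Lower were 1846, or 33.6% against 27.3%. In 100–600 nt strands 403 were higher (7.33% against 11.8%) and 1141 lower (20.8% against 15.0%). With the 300–800 nt arrays counted as 1 sample these counts were 496 (9.02% against 11.0%), 816 (14.8% against 10.9%), 109 (1.98% against 3.79%) and 758 (13.8% against 9.58%). In every one of these fits the share of members called was below that of all probes for higher values and above it for lower values. The fractions shared 1 estimate of spread, although the SD between arrays over members was 0.0971 in 300–800 nt and 0.357 in 100–600 nt. With the 300–800 nt arrays counted as 1 sample, that estimate came from the 100–600 nt pair alone. The counts therefore do not rest on the spread of each fraction by itself, and counts of each fraction fitted alone are given below.

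Between the fractions the share of members called was close to that of all probes in the main fit, though not under every scaling. Higher in 300–800 nt than in 100–600 nt were 1011 members (18.4% against 18.9% of all probes), and lower were 906 (16.5% against 16.2%). With the 300–800 nt arrays counted as 1 sample the counts were 284 (5.17% against 4.82%) and 132 (2.40% against 2.20%). Of the members tested, 182 were higher than genomic DNA in both fractions and 674 were lower in both, while 148 were higher in 300–800 nt and lower in 100–600 nt and 58 the reverse. No call was made in either fraction for 1854. The shares of all probes with these joint calls are not given, so the joint counts do not set the members apart from other probes.

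The log2 ratio of single-probe fragments rose with their length, which ran from 69 to 2666 bp with a median of 225.5 bp. The members were divided by length into 4 classes of nearly equal size. In the shortest class, from 69 to 142 bp, the mean was -0.218 and -0.217 on the 300–800 nt arrays and -0.272 and -0.271 on the 100–600 nt arrays. In the longest class, from 341 bp upward, it was -0.0580 and -0.0636, and -0.0380 and -0.0572. The rise from the shortest to the longest class was thus between 0.154 and 0.234 on every array, near the size of the difference between single-probe and longer fragments. The correlation with length was weak all the same, with a Pearson r of 0.0594 in 300–800 nt (n = 6952) and 0.164 in 100–600 nt (n = 6891), and it is over fragments of the same arrays. Members of more than 500 bp lay closer to the shortest class of fragments with 2 or more probes, though their lengths were not matched. The 105 members from 501 to 2666 bp had means of -0.0796 and -0.0767 in 300–800 nt and 0.0493 and 0.0368 in 100–600 nt. Fragments of 500 to 700 bp with 2 or more probes had -0.0536 and -0.0527, and -0.0207 and -0.0525. Those of 701 to 1000 bp had 0.0469 and 0.0460, and 0.0201 and 0.00849. The members were thus lower on the 300–800 nt arrays and higher on the 100–600 nt arrays, which was not tested.

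Low values were fewer in the longest class than in the shortest. Of the shortest class 10.1% lay below the 0.05 quantile in 300–800 nt and 10.8% in 100–600 nt, against 5.01% and 4.81% of the longest class. Above the 0.95 quantile lay 4.49% of the shortest and 4.37% of the longest class in 300–800 nt, whereas in 100–600 nt the shares were 1.84% and 3.59%. Among probes of longer fragments 3.76% and 3.84% lay below the quantile.

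Base composition moved with length, since the probes held 39.2% C+G in the shortest class and 41.6% in the longest. Within 6 classes of C+G the longest fragments were higher than the shortest on every array, by between 0.102 and 0.296. The members as a whole held 40.3% ± 6.53 C+G (SD over probes) and the other probes 43.2% ± 6.29. Within classes of equal C+G the single-probe fragments were lower, with differences of -0.212 and -0.218 on the 300–800 nt arrays and of -0.159 and -0.154 on the 100–600 nt arrays.

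**Figure D2:**
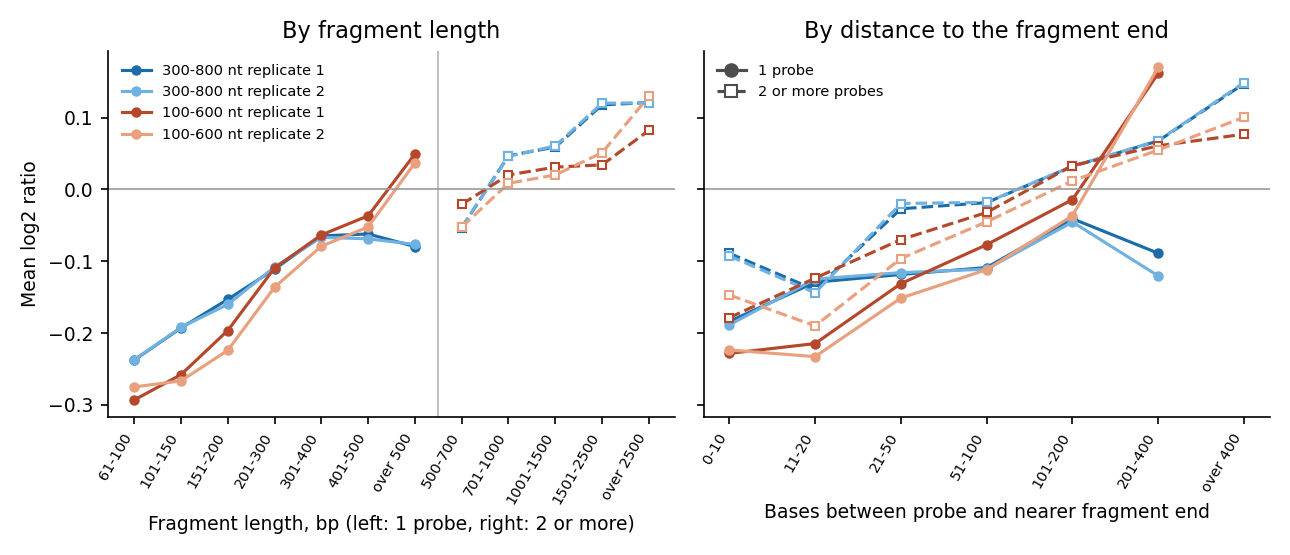
Mean log2 ratio by fragment length (left, in bp) and by the number of bases between the probe and the nearer end of its fragment (right) on each array. Filled circles are single-probe fragments and open squares probes of longer fragments, and each axis is in classes of unequal width. On all 4 arrays the longest classes and those farthest from the end lie above the shortest and nearest, but not every step goes up, and in the class of 201 to 400 bases, with 34 single-probe fragments, the 300–800 nt means are -0.0889 and -0.120.

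A short fragment also puts its probe near masked sequence. The median distance from the probe to the nearer end of its fragment was 29 bases in single-probe fragments and 219 bases in longer ones, and 2194 members (31.6%) had 10 or fewer bases on one side. Members with at most 10 bases had means of -0.184 and -0.189 in 300–800 nt and -0.228 and -0.224 in 100–600 nt. With 101 to 200 bases the means were -0.0408 and -0.0454, and -0.0142 and -0.0367. The same gradient ran through probes of longer fragments, from -0.107, -0.111, -0.159 and -0.162 within 20 bases of an end to 0.147, 0.149, 0.0769 and 0.10 beyond 400 bases. Compared with those end probes of longer fragments, members within 20 bases of an end differed by between -0.0657 and -0.0588 on the 4 arrays, that is, by less than the -0.181 over all probes.

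Of fragment length, distance from the end, C+G, CpG and the excess of purines or pyrimidines, the excess had the Pearson correlation of largest size with the log2 ratio of members on each array. Every probe has 60 bases, and an excess is given here as its purines or its pyrimidines, whichever are more. Members with 30 to 32, that is, close to balance, had mean log2 ratios of -0.00028 and -0.0013 in 300–800 nt and -0.0271 and -0.0506 in 100–600 nt (2330 members). Members with 39 to 41 had means of -0.393, -0.392, -0.424 and -0.433 (651 members), and those with 45 or more of -1.02, -1.01, -0.992 and -0.813 (92 members). In the last class 34 members (37.0%) lay below the 0.05 quantile in 300–800 nt and 41 (45.1%) in 100–600 nt, and 0 of 92 lay above the 0.95 quantile in either fraction. The fall was stepwise over all 6 classes on each array, and Pearson's r over members was -0.230 in 300–800 nt and -0.319 in 100–600 nt.

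Either strand bias was low, but to a different degree on different arrays. The 469 members with 39 or more purines had means of -0.704 and -0.707 in 300–800 nt, and -0.425 and -0.617 in 100–600 nt. The 467 members with 39 or more pyrimidines had means of -0.303 and -0.301 in 300–800 nt, and -0.628 and -0.369 in 100–600 nt. Purine-rich probes were thus the lower kind on 3 arrays and pyrimidine-rich probes on replicate 1 of the 100–600 nt strands. A probe of the opposite strand would turn one kind into the other, and the strand of a fragment relative to its surroundings was not used.

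The excess was of like size in both classes. A count of 39 or more was found in 13.5% of members and 12.7% of other probes, and its mean was 34.5 in both. Longer fragments showed the same fall, from 0.147, 0.148, 0.140 and 0.122 near balance to -0.535, -0.541, -0.879 and -0.623 at 45 or more. Within classes of equal excess the single-probe fragments were lower too, with differences between -0.182 and -0.168 on the 4 arrays. The rise with length was likewise present among members near balance (0.0901, 0.0955, 0.233 and 0.165 from the shortest to the longest class) and among those with 39 or more (0.189, 0.150, 0.199 and 0.212).

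**Figure D3:**
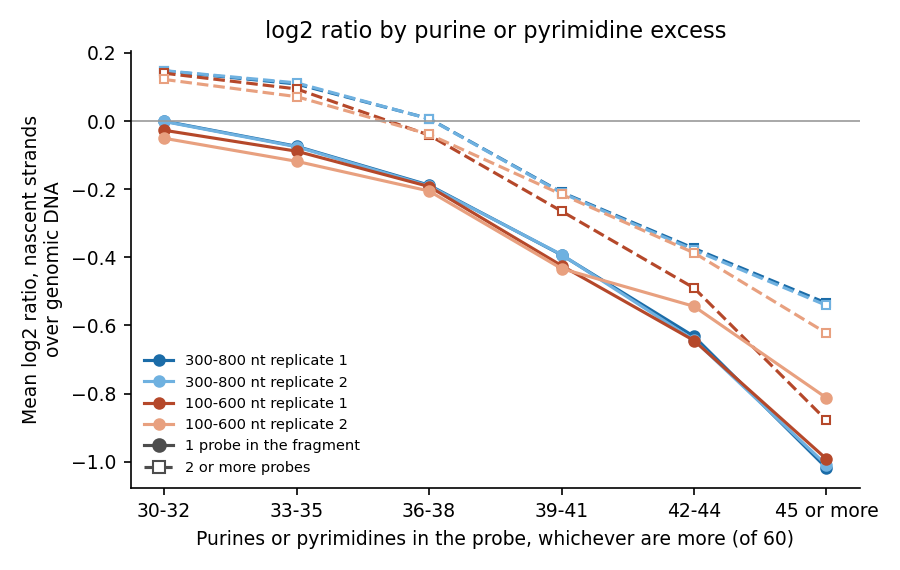
Mean log2 ratio (vertical axis) by the larger of the numbers of purines and pyrimidines among the 60 bases of the probe (horizontal axis), for each array. Filled circles are single-probe fragments and open squares probes of longer fragments. Both kinds fall on every array, and single-probe fragments go from near 0 at 30 to 32 down to between -1.02 and -0.813 at 45 or more.

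The fragments on either side gave little information about a single-probe fragment. Fragment numbers rise along the chromosome, and 6712 members had a probe in the fragment numbered 1 below or 1 above. The Pearson correlation with the mean of these nearest probes was 0.128 and 0.129 on the 300–800 nt arrays and 0.127 and 0.135 on the 100–600 nt arrays. On the fraction means it was 0.130 (n = 6712) and 0.130 (n = 6639). These are correlations over neighbouring probes of the same arrays, and such weak values describe the arrays without marking any single fragment. At fragments numbered 2 below and 2 above they were 0.0165 and 0.0594.

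Probes of 1 longer fragment did not agree much better in 300–800 nt. Consecutive probes over 60 and up to 150 bases apart correlated with r = 0.113 in 300–800 nt (n = 1161) and 0.232 in 100–600 nt (n = 1140). Over 300 and up to 600 bases apart the values were 0.0825 and 0.116. A single member and 1 adjacent probe, taken pair by pair, gave 0.101 and 0.105, which is close to these more distant pairs.

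Low members had a low neighbour, and high members a high one, in a larger share than members at large, a difference that was not tested. In 300–800 nt, 80 of 490 members below the 0.05 quantile (16.3%) had an adjacent probe below it too, against 11.0% of all members with a neighbour. In 100–600 nt these were 72 of 469 (15.4%) against 10.3%. Of the members above the 0.95 quantile, 27 of 292 (9.25%) in 300–800 nt and 24 of 175 (13.7%) in 100–600 nt had an adjacent probe above it, against 7.11% and 5.33% of all members. Most high members therefore stood alone, and the mean of their neighbours was 0.0295 in 300–800 nt and 0.0139 in 100–600 nt, where the members themselves averaged 1.50 and 0.839.

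The shift to low values was also present between direct neighbours. A single-probe fragment next to a longer fragment differed from the nearest probe of that fragment by -0.0923 and -0.0918 in 300–800 nt (3895 pairs) and by -0.117 and -0.111 in 100–600 nt (3409 and 2774 pairs). This is smaller than the difference over all probes, and the compared probes lie at the ends of their fragments. Members lay in runs of up to 15 consecutive single-probe fragments, and 5631 of them had another single-probe fragment next to them.

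**Figure D4:**
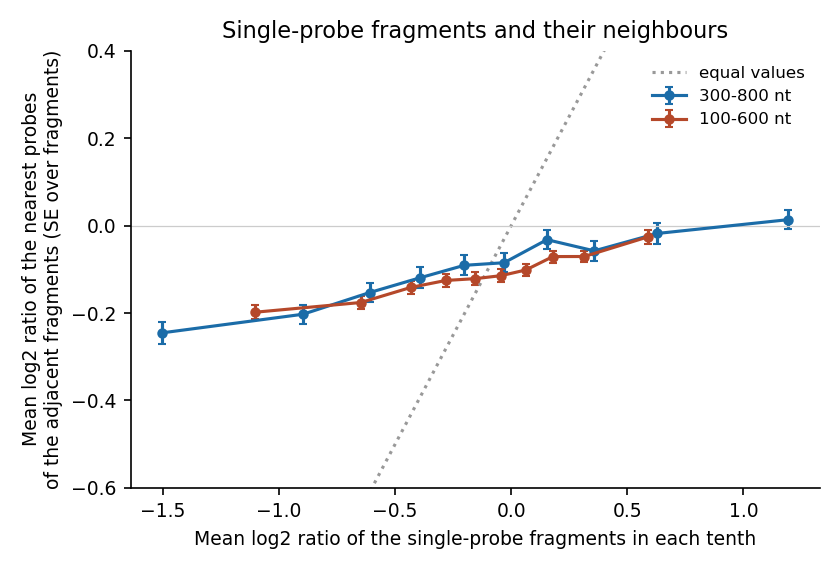
Mean log2 ratio of the nearest probes of the adjacent fragments (vertical axis) for single-probe fragments divided into 10 classes by their own log2 ratio (horizontal axis, mean of each class), for both fractions. Bars are the SE over fragments and the dotted line marks equal values. Neighbours rise only from -0.245 to 0.0136 in 300–800 nt and from -0.198 to -0.0256 in 100–600 nt while the members cover far wider ranges.

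Only 15 single-probe fragments stood above the 0.95 quantile on each of the 4 arrays, which is 0.273% of the 5498 members against 0.291% of all probes. These 15 held 56.9% C+G on average, and 10 of them carried 3 or more CpG in the probe, as did 128 of all 5498. None had 39 or more purines or pyrimidines. Their neighbours averaged 1.00 in 300–800 nt and 0.558 in 100–600 nt, where the neighbours of all members with 4 values averaged -0.0986 and -0.110. The values themselves chose the set, and they are given as a description.

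The 5 highest of them by the mean over both fractions were led by fragment 106197 on chromosome 3. Its probe had log2 ratios of 2.64 and 2.72 in 300–800 nt and of 1.82 and 2.26 in 100–600 nt. The probe matched GRCm38.p6 at chr3:96601184-96601243, inside the promoter window of the predicted gene Gm52628 and inside the span of Lix1l, which RefSeq gives from position 96601133 to 96625352. Of its neighbours, the single-probe fragment 106198 had means of 1.10 in 300–800 nt and -0.107 in 100–600 nt, and the single-probe fragment 106196 of 0.0603 and -0.0766.

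Fragment 45327 lay in the promoter of Hprt, the purine salvage enzyme gene of the X chromosome. It had log2 ratios of 2.31 and 2.37 in 300–800 nt and 1.57 and 1.61 in 100–600 nt. The match was at chrX:52987970-52988029 of GRCm38.p6, where the probe ends 49 bases before the start of the gene, and the probe held 8 CpG. The neighbouring fragments 45326 and 45328 had means of 1.45 and 1.21 in 300–800 nt but only 0.147 and 0.127 in 100–600 nt.

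The other 3 were fragments 42523, 105456 and 45824. Fragment 42523, with 70.0% C+G, had 2.50 and 2.66 in 300–800 nt and 1.12 and 0.972 in 100–600 nt. Fragment 105456, with 7 CpG, had 1.90 and 1.97, and 1.66 and 1.21. Fragment 45824 differed from both in having no CpG and 31.7% C+G, with 2.42 and 2.03, and 1.10 and 0.947. Beside 42523, fragment 42524 had means of 1.53 in 300–800 nt and 1.94 in 100–600 nt. Beside 105456 the means were 1.97 and 1.40 at fragment 105455, but -0.190 and -0.395 at 105457. Beside 45824 they were 0.836 and 0.430 at fragment 45823, and 0.627 and 0.441 at 45825. By limma all 5 were higher than genomic DNA in both fractions, with adjusted p from 0.00132 to 0.00136 in 300–800 nt and from 0.0086 to 0.0132 in 100–600 nt, and SE between 0.0943 and 0.137. The same values chose these 5, so the p-values are no more than a description.

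Low values on all arrays took a larger share of single-probe fragments than of all probes, a difference that was not tested. Below the 0.05 quantile on each of the 4 arrays stood 50 members, or 0.909%, against 0.549% of all probes. They held 39% C+G on average, and 0 of 50 carried 3 or more CpG. A purine or pyrimidine count of 39 or more was found in 24 of them (48.0%), against 13.4% of all members with 4 values. Their median length was 157.5 bp, against 226 bp, and their neighbours averaged -0.373 and -0.362.

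Of these 50, fragment 43367 on the X chromosome had the lowest mean over both fractions, with log2 ratios of -3.33 and -3.05 in 300–800 nt and -2.80 and -1.36 in 100–600 nt. Its probe held 47 purines. Fragment 63298, with 45 pyrimidines, had -3.20 and -3.27, and -1.22 and -1.76. In the sequences printed above the other kind of base makes up 13 and 15 of the 60 bases.

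The remaining members of the lowest 5 were less one-sided. Fragment 109025, with 39 purines and 30% C+G, had -3.07 and -2.89 in 300–800 nt and -1.21 and -1.92 in 100–600 nt. Fragment 65239, with 42 purines in a stretch of 93 bp, had -3.16 and -2.92, and -0.968 and -1.66. Fragment 64934, with 36 purines, had -2.28 and -2.18, and -1.19 and -2.45. All 5 were lower than genomic DNA in both fractions, with limma adjusted p from 0.00132 to 0.00354 in 300–800 nt and from 0.0103 to 0.0186 in 100–600 nt. The 5 were chosen by the same values that were tested, so these p-values only describe them. None of the 5 held a CpG, as was the case for 61.2% of all members.

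**Figure D5:**
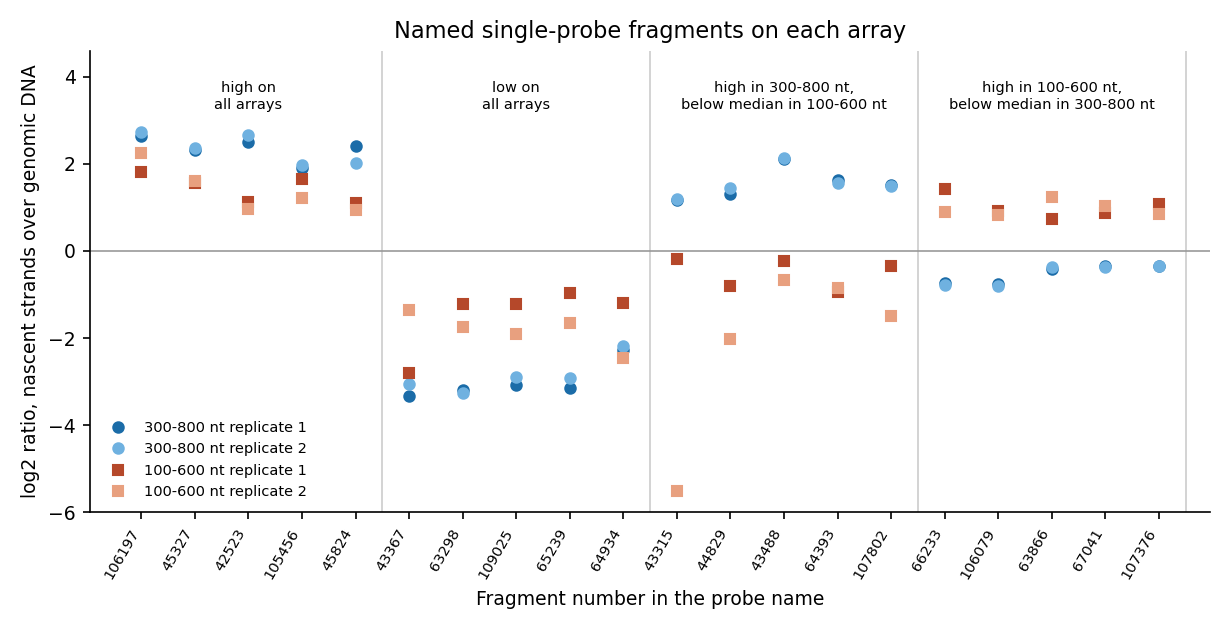
Log2 ratio, nascent strands over genomic DNA (vertical axis), on each array for the 20 named single-probe fragments (horizontal axis, by number), in the 4 sets by which they were chosen. The circles of the 300–800 nt arrays nearly coincide, and the squares of the 100–600 nt arrays lie further apart, most of all at fragment 43315, where replicate 2 was -5.51.

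Fragments that were high in one fraction and below the median in the other were chosen for that pattern. High in both 300–800 nt arrays and below the median in both 100–600 nt arrays were 55 members (1.00% against 0.885% of all probes), and the reverse held for 9 (0.164% against 0.246%). Of the former, fragment 43488 had 2.12 and 2.13 in 300–800 nt and -0.240 and -0.659 in 100–600 nt. Fragment 64393 had 1.63 and 1.57, and -0.947 and -0.857, with 37 pyrimidines. Fragment 44829 had 1.30 and 1.44, and -0.815 and -2.03, and fragment 107802 had 1.52 and 1.49, and -0.354 and -1.49. Fragment 43315 showed the largest difference of fraction means, 4.04 ± 1.69 (SE), but it rested on one array, with 1.17 and 1.20 in 300–800 nt and -0.192 and -5.51 in 100–600 nt. By limma it did not pass the test of the difference (adjusted p = 0.122). That outcome changed with the 300–800 nt arrays counted as 1 sample.

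In the reverse direction fragment 66233, of 875 bp, had -0.725 and -0.774 in 300–800 nt and 1.43 and 0.903 in 100–600 nt. Fragment 106079 had -0.758 and -0.797, and 0.916 and 0.835, and its probe held 42 pyrimidines. Fragment 63866 had -0.408 and -0.358, and 0.732 and 1.24. Fragments 67041 and 107376 had means of -0.366 and -0.343 in 300–800 nt and 0.957 and 0.954 in 100–600 nt. These 5 probes held 51.0% C+G on average and the former 5 held 43.0%.

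The ends of the length range held values of both signs. The shortest length, 69 bp, was shared by 20 members, of which 18 had a value on all 4 arrays. Their log2 ratios ran from -1.33 to 0.723 with a median of -0.414 and from -1.51 to 0.774 with a median of -0.404 in 300–800 nt. In 100–600 nt they ran from -0.968 to 0.679 (median -0.257) and from -1.03 to 0.859 (median -0.153). Below 0 lay 11 of the 18 on each 300–800 nt array and 12 on each 100–600 nt array. Fragment 42854, the one of lowest number among them, had -1.11 and -1.51 in 300–800 nt and -0.214 and -0.568 in 100–600 nt. Fragment 66237, of 2652 bp and the longest with 4 values, had -1.20 and -1.24, and 0.221 and 0.168, with a probe 1169 bases from the nearer end that held 41 purines. It lay below 0 in 300–800 nt and above 0 in 100–600 nt.

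The probes of single-probe fragments seldom lay wholly inside a RefSeq promoter window. Each probe sequence was looked up, whole and on both strands, in RefSeq windows of GRCm38.p6 that run from 250 bases before to 50 bases after the start of a gene. A match was found for 22 members (0.316%) and 103 other probes (0.801%). The 22 members, whose probes held 46.9% C+G on average, had a mean log2 ratio of 0.363 ± 0.982 in 300–800 nt (SD over fragments, n = 22) and 0.193 ± 0.804 in 100–600 nt (n = 21). Of these, 4 stood above the 0.95 quantile in 300–800 nt (18.2%) and 5 in 100–600 nt (23.8%). The 103 other probes had means of 0.308 and 0.205, with 10.7% and 23.8% above the quantile.

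Beside the probes at Hprt and Gm52628, that in the promoter window of Chd1l, a chromatin remodeller, was high in both fractions. Fragment 107508, at chr3:97610258-97610317, had 1.20 and 1.23 in 300–800 nt and 1.31 and 1.28 in 100–600 nt, and the probe held 4 CpG. This probe also lies inside the span of Fmo5, which RefSeq gives from position 97609938 to 97655287. Fragment 67051, at chrX:73880895-73880954 before L1cam, a neural adhesion molecule, had 0.998 and 0.895, and 0.669 and 0.779. Fragment 67467, at chrX:74246718-74246777 before a start of Flna, the actin crosslinker filamin A, had 1.10 and 1.02 but -0.0650 and 0.0165 in 100–600 nt.

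Below the 0.05 quantile lay 0 of the 22 promoter fragments in 300–800 nt and 1 of 21 in 100–600 nt, that of Gja5. Fragment 106780, at chr3:97032211-97032270 before Gja5, a connexin gene of heart and vessels, had -0.759 and -0.841 in 300–800 nt and -1.63 and -1.36 in 100–600 nt. Before Hsd3b1, a steroid dehydrogenase, fragment 108868 had -0.788 and -0.812, and -0.425 and -1.17, while fragment 108869, which lies further upstream, had 0.0781 and -0.0989 in 300–800 nt and -0.0957 on the only 100–600 nt array with a value. The probes of these 3 held 41.7%, 40.0% and 36.7% C+G, against 65.0% at Hprt and 66.7% at Gm52628. Among the 22 fragments the probes with 3 or more CpG, 4 in all, were the fragments of Hprt, Gm52628, Chd1l and L1cam, and each of their values was 0.669 or more.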

How the data were processed

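The 4 two-colour Agilent arrays of 60-mer probes compared nascent strands with genomic DNA of PGK12.1 cells, in a pair of arrays for each strand length. The authors deposited spot intensities as extracted by Feature Extraction 9.5.3.1 (300–800 nt, background-subtracted and dye-normalised) and 7.5.1 (100–600 nt, without dye normalisation), and for the former also a log10 ratio. Spots marked by the software were left out, log2 ratios were loess-normalised in limma 3.58.1 (R 4.3.3) and repeated spots averaged. A further 24 probes without a fragment name were left out. A value on all 4 arrays was held by 5498 single-probe fragments. Each fraction and their difference were tested with limma, with 1 estimate of spread for both fractions, and Benjamini-Hochberg adjustment over 15478 probes. The difference between single-probe and longer fragments was tested by exact sign-flips over arrays. Fragments were named by rule: the 5 highest and 5 lowest beyond the 0.95 or 0.05 quantile on every array, 5 in each direction that were above the 0.95 quantile on both arrays of one fraction and below the median on both of the other, and the shortest (the lowest number among ties) and the longest. The members, lists and tests were chosen with earlier results of these data known, and purine excess after the values were seen. Probes were matched to RefSeq promoters of GRCm38.p6, while the design used Ensembl mouse build 35. Scripts were tested on simulated data. The number of arrays limits the precision.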

Additional observations from a re-analysis of the deposited data

Results flagged for a closer look

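For 17 of the 22 named single-probe fragments the fractions differed by limma's test of the difference at an adjusted p under 0.05. They were named partly for that pattern, and fraction, dye and array design cannot be told apart. By the same test 18.9% of all probes were higher and 16.2% lower in 300–800 nt than in 100–600 nt. Because of how the 22 were chosen, their share cannot be compared with these. The difference of fraction means, 300–800 nt minus 100–600 nt on the log2 scale, was 0.75 at fragment 45327, 1.53 at 42523 and 1.20 at 45824, all high on every array. It was -1.75 at 63298, -1.42 at 109025 and -1.73 at 65239, all low on every array. Among fragments chosen for a difference it was 2.80 at 44829, 2.57 at 43488, 2.50 at 64393 and 2.43 at 107802, and -1.92 at 66233, -1.65 at 106079, -1.37 at 63866, -1.32 at 67041 and -1.30 at 107376. Fragment 42854, one of several of the shortest length, had -0.92 and 66237, the longest with 4 values, -1.42. With the 300–800 nt arrays counted as 1 sample, limma's adjusted p rose to 0.227 at 45327, 0.0591 at 45824 and 0.146 at 42854, and the other 14 stayed under 0.05.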

How the results depend on the processing

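None of the alternatives tried matched fragment length. The lower mean of single-probe fragments kept its direction under each of them, from -0.254 with median centring in place of loess to -0.158 with each longer fragment counted once. Its like size in both fractions depended on the scaling: on the 300–800 nt arrays it was -0.183 and -0.185, but -0.306 and -0.312 with median centring, -0.306 and -0.311 with the deposited ratio and -0.143 and -0.0993 with normexp, where the 100–600 nt arrays had -0.171 and -0.227, -0.172 and -0.184, and -0.161 and -0.242. Within classes of C+G it was -0.186 and within classes of purine or pyrimidine excess, an alternative added after seeing the data, -0.178. The limma counts depended on the settings, while in all 14 settings each fraction's share of members called higher was below, and called lower above, that of all probes. The order below is higher and lower in 300–800 nt, higher and lower in 100–600 nt, and higher and lower in 300–800 nt than in 100–600 nt. Shares, where given, are those of members against all probes. At an adjusted p under 0.01 the shares in 300–800 nt were 14.2% against 17.2% and 21.2% against 16.4%. In 100–600 nt they were 0.0909% against 0.181% and 1.56% against 1.31%. Between the fractions they were 4.58% against 4.47% and 2.44% against 2.46%. Each fraction fitted alone gave 36.2% against 42.9% and 49.2% against 42.6% in 300–800 nt. In 100–600 nt it gave 1.98% against 3.79% and 13.8% against 9.58%. Normexp background correction with an offset of 50 (on median spot signals for the 300–800 nt arrays) gave 270 (4.91% against 6.75%), 449 (8.17% against 7.35%), 103 (1.87% against 3.97%), 637 (11.6% against 8.44%), 183 (3.33% against 3.35%) and 91 (1.66% against 2.07%). The mean of the 300–800 nt arrays as 1 sample gave 496, 816, 109, 758, 284 and 132, an adjusted p under 0.01 gave 781, 1164, 5, 86, 252 and 134, and each fraction fitted alone gave 2519, 3420, 109 and 758. Probes with a value on only 1 array of a fraction raised the third count to 605 (8.78% against 13.5%), and the deposited log10 ratio the last to 1544 (28.1% against 24.4%). With that ratio 14.8% of members against 17.3% of all probes were higher in 300–800 nt than in 100–600 nt. Median centring gave 15.2% against 17.3% higher and 15.7% against 13.6% lower. How close these shares between the fractions lay thus depended on the scaling. Leaving out each array in turn gave 491 to 2395, 788 to 3144, 109 to 1651, 758 to 2623, 268 to 2444 and 116 to 2419, the low ends without a 300–800 nt array and the high ends without a 100–600 nt array, where the lone array is assumed to vary like the other pair.

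With the hybridisation number as a replicate block the difference between fractions gave 1097 calls higher in 300–800 nt (20.0% against 20.6% of all probes) and 961 lower (17.5% against 17.1%). The numbers share nothing else in the labels, and the replicate deviations of the fractions had r = -0.00973, so they were not taken as a pairing.

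Shares of members above the 0.99 and 0.90 quantiles were 0.964% and 8.18% in 300–800 nt and 0.609% and 5.96% in 100–600 nt, and below the 0.01 and 0.10 quantiles 1.58% and 13.7%, and 1.47% and 14.3%. Past the quantile on both 100–600 nt arrays were 0.746% (high) and 2.51% (low). The correlation with adjacent fragments in 300–800 nt was 0.178 with median centring, 0.0938 with normexp, 0.177 with the deposited ratio, 0.122 with all probes of each neighbour, 0.0165 at fragments 2 away, 0.126 as Spearman's rho and 0.128 to 0.129 without either array. In 100–600 nt it was 0.122, 0.115, 0.124 (all probes), 0.0594 (2 away), 0.123 (rho) and 0.115 with marked spots kept. The correlation with length in 300–800 nt was 0.0876, 0.0487, 0.0874 and 0.0734 (median centring, normexp, deposited ratio and rho), and in 100–600 nt 0.130 to 0.172 without either array. No value turned its sign. The 17 to 22 faint spots per 300–800 nt array were too few to change a result.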
